A study of Mus musculus with 4 samples.

Results

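The interferon gamma locus was examined as the accessible chromatin regions whose nearest protein-coding gene is Ifng, Il22 or Mdm1, which lie next to each other on chromosome 10 of the mouse. The rule found 63 regions of the 91266 in the series, 41 nearest to Ifng, 1 nearest to Il22 and 21 nearest to Mdm1. The regions come from ATAC-seq, in which a transposase inserts adapters into open chromatin, of cultured splenic natural killer (NK) cells of wild-type C57BL/6 mice. The cells were held for 72 h in low dose (LD) or high dose (HD) IL-15, with 2 biological replicates per dose and about 75000 cells per replicate. The labels give no concentration of IL-15 and no age or sex of the mice. The measurement for each region is its position, its width and whether the authors called it differentially accessible, in 1 deposited list named up and another named down. No value per sample, fold change or p-value was given, so no spread between replicates stands behind any count below, and sequencing depth is unknown. Which dose was the reference is not given in the sources used here, and the lists keep their names. The locus was chosen by its mix of up and down calls and their distance from Ifng, which are measured values, so its counts are a description with no test.

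Interferon gamma is the main cytokine that NK cells release on activation. It acts on macrophages and many other cells through a receptor that signals by JAK kinases. In NK and T cells, Ifng is controlled by its promoter and by conserved elements spread over the flanking chromatin, where T-box factors, STAT and RUNX proteins and CTCF bind. Ifngas1, also called NeST or Tmevpg1, is a long non-coding RNA gene downstream of Ifng that is transcribed towards it and has been linked to interferon gamma production. Il22 encodes a cytokine of the IL-10 family, made mostly by group 3 innate lymphoid cells and T helper cells. Iltifb is a second copy of Il22 in the C57BL/6 genome, and Mdm1 encodes a microtubule-binding protein of centrioles.

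Markers of NK cells were checked first as promoter windows overlapping an accessible region. This was so for 5 of 6 NK markers (Ncr1, Klrb1c, Klrk1, Eomes and Tbx21, not Klrd1). The same held for 1 of 6 T cell markers (Cd5), 0 of 4 B cell markers and 1 of 4 myeloid markers (Itgam, which NK cells also carry). A region within 1000 bp of either gene end, a wider criterion, was present for 6 of 6 NK, 4 of 6 T cell (Cd3e, Cd4, Cd5 and Cd28), 1 of 4 B cell (Cd79a) and 2 of 4 myeloid markers (Itgam and Cd14). Of all 21263 promoter windows of protein-coding genes, 54% overlapped a region. A list of positions shows no level, so the purity of the cells was not tested.

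The 250 bases before 3 starts of the locus, as the promoter table places them, are shown because each lies inside an accessible region and they differ in their call. The Ifng window is chr10:118440796-118441045 on the plus strand, the Ifngas1 window chr10:118556526-118556775 on the minus strand and the Mdm1 window chr10:118141537-118141786 on the plus strand. The start of Mdm1 used for its window, 118141787, lies inside the annotated span of the gene, which begins at 118141540, so most of that window is within the span. All windows are from RefSeq on GRCm38.p6, read 5′ to 3′ along the gene. Capitals mark the letters TTCNNNGAA (STAT) in Ifng and TCACAC (a short T-box core) in Ifngas1.
Ifng: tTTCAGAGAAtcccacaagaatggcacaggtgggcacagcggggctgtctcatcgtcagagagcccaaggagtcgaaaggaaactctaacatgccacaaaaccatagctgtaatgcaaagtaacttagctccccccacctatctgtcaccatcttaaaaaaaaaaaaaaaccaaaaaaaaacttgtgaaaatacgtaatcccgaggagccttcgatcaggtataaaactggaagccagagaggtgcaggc
Ifngas1: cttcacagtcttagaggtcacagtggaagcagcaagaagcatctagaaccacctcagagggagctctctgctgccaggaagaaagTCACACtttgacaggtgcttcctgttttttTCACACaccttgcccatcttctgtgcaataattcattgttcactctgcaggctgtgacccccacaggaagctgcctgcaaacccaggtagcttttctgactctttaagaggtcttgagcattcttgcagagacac
Mdm1: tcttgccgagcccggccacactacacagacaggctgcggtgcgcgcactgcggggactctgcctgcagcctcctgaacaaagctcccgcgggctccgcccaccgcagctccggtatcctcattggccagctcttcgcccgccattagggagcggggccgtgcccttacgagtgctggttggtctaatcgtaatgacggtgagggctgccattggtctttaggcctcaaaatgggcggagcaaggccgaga
The Ifng and Mdm1 windows lie in regions that are in neither list. The Ifngas1 window lies in a down region. It holds 0 CpG dinucleotides, against 6 in the Ifng window and 20 in the Mdm1 window, and the median over 32851 promoter windows was 6. The G and C content was 48.8% at Ifngas1, 45.2% at Ifng and 64% at Mdm1, with a median of 52.4% over all windows.

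Both strands of these 250 bases were searched for 9 motifs: TTCNNNGAA (STAT), AGGTGTGA (T-box), TGANTCA (AP-1), TGTGGTT (RUNX), AGGAAGT (ETS), CTTTGAT (TCF/LEF), TGGAAA (NFAT), GGGANNTCC (NF-kB) and the core of the CTCF motif. Only the STAT letters occurred among the windows shown, once, at bases -249 to -241 from the Ifng start, as TTCAGAGAA. Of all promoter windows, 7.02% hold those letters. The shorter T-box core TCACAC was added after the promoters had been seen. Ifngas1 holds it 2 times, at -165 to -160 and at -135 to -130 from its start. At least 1 copy occurs in 12.3% of all windows and 2 or more in 0.998%. Its letters are part of the longer T-box motif read on the other strand, which neither copy completes. A match of letters is a description and not a site at which a factor was shown to bind.

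Of the 63 regions of the locus, 4 were up and 2 were down, and 57 were in neither list. Over all regions of the series, 4.21% were up, 1.40% were down and 5.61% were in either list. At the locus the up share was 6.35% and the down share 3.17%. These shares belong to the values that chose the locus, and nothing is read from them. All 6 listed regions were nearest to Ifng, where they made up 14.6% of 41 regions. With genes of every biotype allowed, Ifng kept 15 regions, of which 0 were up and 1 was down. None of the 21 Mdm1 regions and not the single Il22 region was listed.

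**Figure D1:**
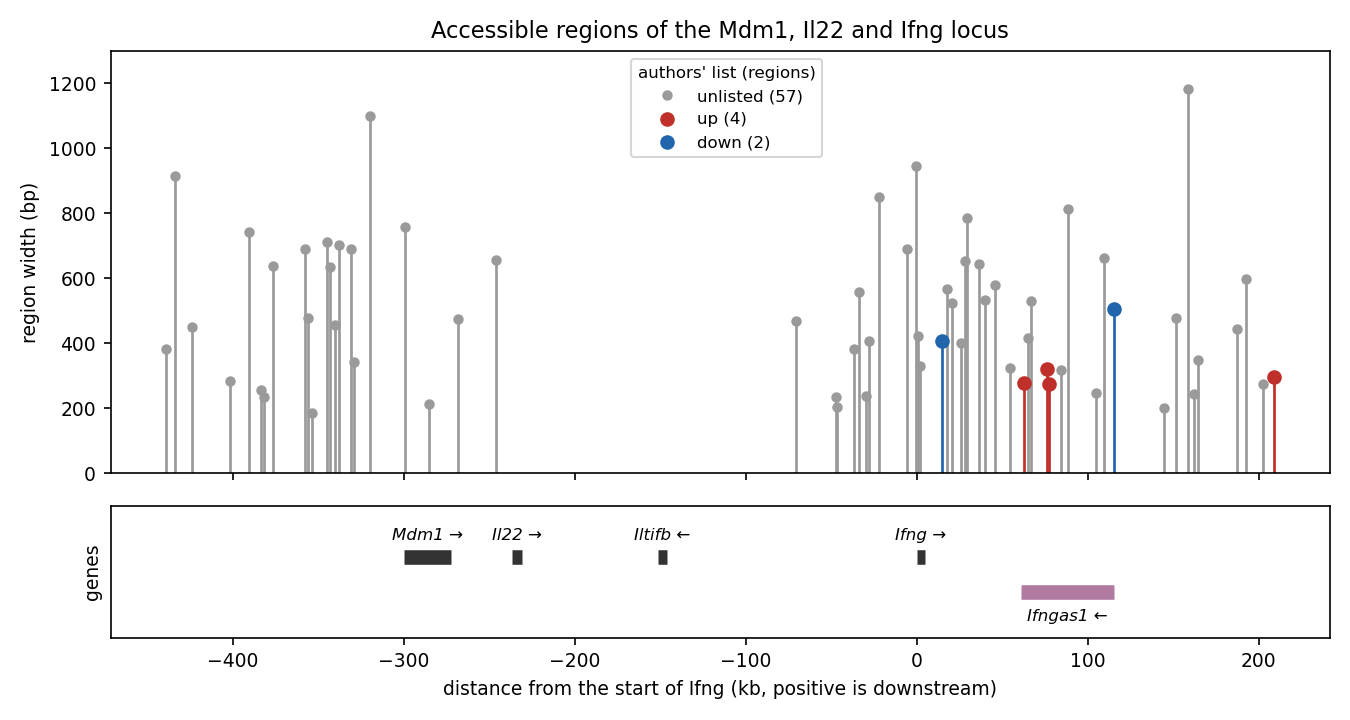
Width in bp of each of the 63 regions (upper panel, vertical axis) against the distance of its centre from the start of Ifng in kb (horizontal axis), with the genes drawn to scale below and arrows for their strand. Grey stands for 57 unlisted, red for 4 up and blue for 2 down regions, and the listed ones all lie to the right of Ifng.

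The gene body and promoter of Ifng showed no listed region. Ifng is a gene of 4.85 kb at chr10:118441046-118445894, on the plus strand. A region of 945 bp, chr10:118440451-118441395, covered its start. A second of 422 bp, chr10:118441936-118442357, and another of 331 bp, chr10:118442965-118443295, lay within the gene. All 3 were unlisted. At 5.61% of all regions listed, a count of 0 among 3 is near the background. The end of the gene had no region on it, and the nearest lay 2.6 kb away inside the gene. Exons and introns were not annotated here.

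Upstream of Ifng, 9 regions were assigned to it and 0 of them were listed. At 5.61% of all regions listed, a count of 0 among 9 is near the background. The closest upstream region, of 691 bp at chr10:118435291-118435981, had its centre 5.4 kb before the start. The widest of the upstream regions, 849 bp at chr10:118418772-118419620, was centred at -21.8 kb. A conserved enhancer of Ifng used by NK and T cells is known as CNS-22 after its distance in kb from the gene, and this region lies at that distance. Another such element is CNS-34, and a region of 558 bp at chr10:118406848-118407405 was centred at -33.9 kb. Both regions were looked up for these distances. Whether they hold the published sequences was not tested. The farthest upstream region of Ifng, 468 bp at chr10:118370384-118370851, was centred at -70.4 kb.

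Downstream of Ifng lay 29 regions, and all 6 listed regions were among them. They fall in the order down, up, up, up, down, up with growing distance from the gene. The 1st is a down region of 406 bp at chr10:118455776-118456181, 9.88 kb past the end of Ifng. It overlaps no gene of any biotype. The unlisted regions on either side of it were the one inside Ifng, 12480 bp away, and a region of 566 bp at chr10:118458679-118459244, 2497 bp away. From 20 to 50 kb past Ifng, 7 regions followed, with widths from 323 to 785 bp, and 0 of them were listed. At 5.61% of all regions listed, a count of 0 among 7 is near the background. These 7 regions include, singled out after the values were seen, the neighbouring pair at chr10:118468882-118469533 and chr10:118470310-118471094, of 652 and 785 bp.

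Ifngas1 carried regions of both lists. The gene spans 54.5 kb, chr10:118502035-118556525, on the minus strand, so that its start is the end farther from Ifng. Of 10 regions overlapping it, 3 were up and 1 was down, beside 4.21% up and 1.40% down of all regions. These calls are among those that chose the locus, and nothing is read from their number. The down region, 505 bp at chr10:118556418-118556922, covers its start and the whole promoter window shown above. The 3 up regions lie in the other part of the gene, from 38.2 to 52.7 kb downstream of its start. They measured 277 bp at chr10:118503806-118504082, 320 bp at chr10:118516868-118517187 and 274 bp at chr10:118518083-118518356. Together they span 14.6 kb and are 57.9, 71 and 72.2 kb from the end of Ifng.

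The up regions in Ifngas1 were not all adjacent. The pair at 71 and 72.2 kb is separated by 895 bp with no region between. Between the first up region and this pair lie 2 unlisted regions, of 417 and 529 bp, at chr10:118506164-118506580 and chr10:118507464-118507992. Next to the pair on the far side is an unlisted region of 318 bp at chr10:118525073-118525390, and the region beside the first up region on the Ifng side is an unlisted one of 323 bp at chr10:118495415-118495737. Ahead of the down region at the Ifngas1 start lies an unlisted region of 664 bp, chr10:118550082-118550745, and behind it, after 28924 bp without a region, one of 201 bp, chr10:118585847-118586047.

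The call at Ifngas1 was set beside those at all promoters. Of 11588 promoter windows of long non-coding RNA genes, 2184 (18.8%) overlapped a region. Among those 2184, an up region was overlapped by 60 (2.75%) and a down region by 20 (0.916%), with Ifngas1 among the last. Of the 11482 windows of protein-coding genes that overlapped a region, 73 (0.636%) overlapped an up region and 24 (0.209%) a down region.

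The last listed region of the locus is an up region of 298 bp at chr10:118650099-118650396, 204 kb from Ifng and outside any gene. It follows an unlisted region of 275 bp, chr10:118643579-118643853. It is also the last region assigned to Ifng at all. The next one, of 433 bp at chr10:118651208-118651640, is unlisted and nearer to Dyrk2, which encodes a protein kinase, at 204 kb from that gene against 205 kb from Ifng. Beyond it, 5 of the 49 Dyrk2 regions were listed, 4 up (8.16%) and 1 down (2.04%), beside 4.21% and 1.40% of all regions. Up regions lie at 217, 240 and 267 kb from Ifng, with 2 unlisted regions between the last up region of Ifng and the nearest of them. Farther on, the down region lies at 368 kb and the remaining up region at 596 kb. On the other side, the first region inside the locus, 383 bp at chr10:118001960-118002342, is nearest to Mdm1, and the last outside it, 438 bp at chr10:117990385-117990822, is nearest to Rap1b. Both are unlisted.

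**Figure D2:**
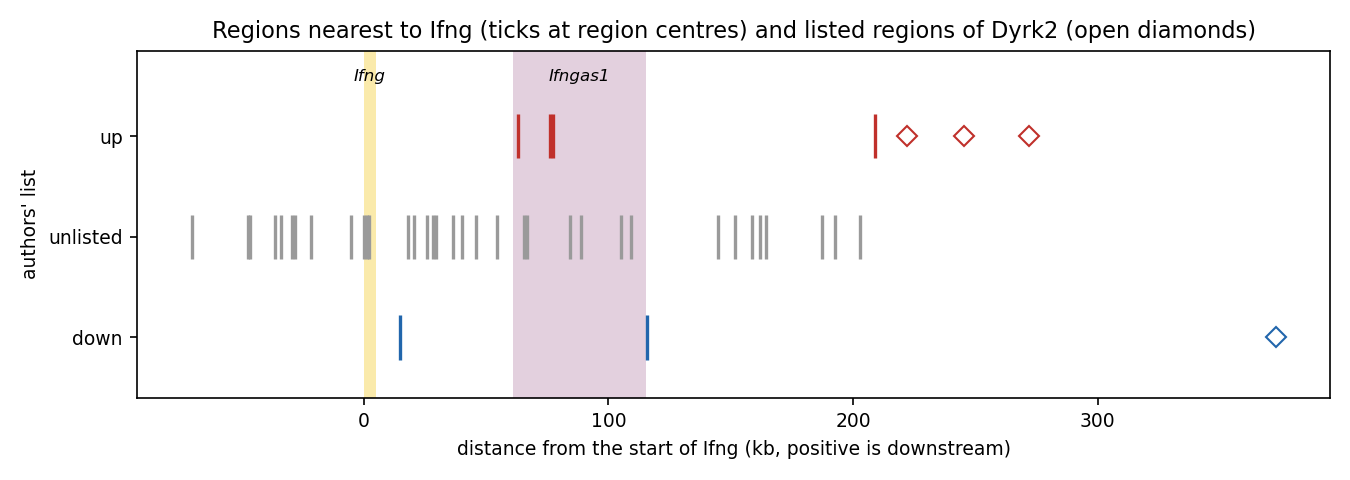
Position of the 41 regions nearest to Ifng (vertical ticks at region centres, not to width) by the authors' list (vertical axis) against the distance from the start of Ifng in kb (horizontal axis). Shading marks the spans of Ifng and Ifngas1, and open diamonds the listed regions of Dyrk2 within the axis, 3 up and 1 down. The down ticks stand at 14.9 and 115.6 kb on either side of the 3 up ticks in Ifngas1.

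Consecutive listed regions within the locus shared a list at the 2 shorter gaps and differed at the 3 longer ones. These calls and distances belong to the values that chose the locus, and nothing is read from them. The 2 pairs of up regions in Ifngas1 are 0.895 and 12.8 kb apart. The 3 consecutive pairs of opposite calls are 47.6, 38.1 and 93.2 kb apart, with 9, 4 and 8 unlisted regions between. Over the series, 98.3% of 352 consecutive listed pairs under 5 kb apart shared a list. So did 93.5% of 479 pairs from 5 to 20 kb and 77.5% of 1222 pairs from 20 to 100 kb. Up regions were 3845 of the 5120 listed, so pairs that share a list are common at any distance. On the Mdm1 side, the nearest listed region beyond the locus is an up region nearest to Mdm2, 734 kb from the first down region, with 79 unlisted regions between them.

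Width was not used to choose the locus. The 63 regions had a median width of 468 bp, against 400 bp over all regions. The 4 up regions were from 274 to 320 bp wide, with a median of 287.5 bp. All 4 were below the lower quartile of the authors' up list, 353 bp, and that list's median was 453 bp. Up regions as narrow as 274 bp made up 6.16% of the up list, and those as narrow as 320 bp made up 15.9%. The 2 down regions, of 406 and 505 bp, lay within the interquartile range of the down list, 392 to 717 bp. Of the 57 unlisted regions of the locus, 13 were no wider than 320 bp, so narrow regions there were not all up. The widest region nearest to Ifng, 1183 bp at chr10:118599158-118600340, and the widest nearest to Mdm1, 1100 bp at chr10:118121139-118122238, were unlisted. Reads per region were not given, and their part in these calls was not tested.

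**Figure D3:**
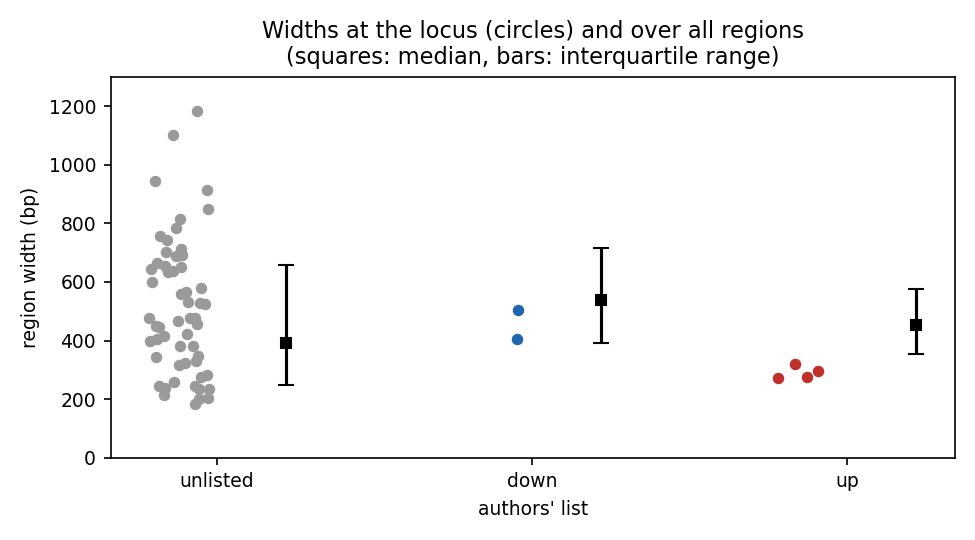
Region width in bp (vertical axis) by the authors' list (horizontal axis). Circles are single regions of the locus (57 unlisted, 2 down, 4 up), spread sideways at random, and squares with bars give the median and interquartile range over all regions of that list. The 4 up circles, from 274 to 320 bp, lie below the bar of the up list, which starts at 353 bp.

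Il22 and its copy lay in a stretch without any accessible region. The only region nearest to Il22, 655 bp at chr10:118194878-118195532, is 9.05 kb before the gene. The next region on that side of Ifng begins after a gap of 174851 bp, and 0 regions were nearest to Iltifb. This was the longest gap of the locus, followed by 28.9 kb, while the median gap was 5390 bp at the locus and 6906 bp over the series. Of 91245 gaps between consecutive regions, 1757 (1.93%) were longer. The gap holds 14 annotated genes, of which 2 are protein-coding (Il22 and Iltifb) and 12 are pseudogenes.

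The copies share sequence. The start of Il22 used here, 118204964, lies inside the annotated span of the gene, which begins at 118204584. The 300 bases around the starts used for Il22 and Iltifb align over 107 positions with 101 identical (94.4%). The aligned part ends at the last base of the Iltifb window, so its full extent was not measured. The aligned part includes a run of 30 bases without a difference. That run is shown because a read of that length would match both copies.
Il22 and Iltifb: tcccctgatgtttttgccttttgctctctc
How reads that match more than 1 place were treated is not given in the sources used here, and its part in the gap was not tested. The absence of a listed position there does not show that Il22 was closed in these cells.

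Mdm1 had accessible chromatin at its start and upstream, with 0 listed regions of 21. At 5.61% of all regions listed, a count of 0 among 21 is near the background. With genes of every biotype allowed, 15 of the 21 were nearest to the non-coding gene Gm32663 and 6 to Mdm1, and the single Il22 region was nearest to Gm40775. Its span is 27.5 kb, chr10:118141540-118168999, on the plus strand. A region of 757 bp, chr10:118141420-118142176, covers the start, and one of 214 bp lies inside the gene at chr10:118156045-118156258. The region closest to its end, 476 bp at chr10:118172387-118172862, is 3.39 kb past it. The other 18 are upstream of the gene, between 185 and 1100 bp wide.

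Genes that act with interferon gamma were taken as 5 lists of 86 genes. Of these, 84 were the nearest gene to at least 1 region. They had 1323 regions, with 35 up (2.65%) and 42 down (3.17%), beside 4.21% and 1.40% of all regions. Up calls were assigned to 17 genes and down calls to 23, with 8 genes receiving both and 54 neither. Over the series, both kinds were assigned to 1.36% of 16392 genes with a region, and to 8.35% of 2503 genes with at least 10 regions. The share of all genes with an up call, or with a down call, is not given here. The gene counts of the lists therefore stand without a background of their own. When only regions within a gene or 10 kb of it counted, even if nearer to another gene, up calls were found at 7 genes and down calls at 22. Some of these genes were already known to be listed when the lists were made.

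Most receptor and signalling genes had no call, 14 of 18. Down calls were assigned to 4 and up calls to 1 of 18 genes, with 8 down (4.12%) and 1 up (0.515%) of 194 regions, beside 1.40% down and 4.21% up of all regions. Of the 8 down regions, 4 were at Ifngr1. Within the gene or 10 kb of it, 5 had a down call and 0 an up call. Ifngr1, the ligand-binding chain of the interferon gamma receptor, had 4 of 26 regions down, 2 of them within the gene. Jak1, a kinase bound to that receptor, had 2 of 40 down and 1 up. Jak2 and Irf8 had 1 down region each, and are named because so few genes remained, after their values were seen.

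Among 20 genes that drive Ifng in NK cells, 5 had a down call and 0 an up call. Of their 175 regions, 9 (5.14%) were down and 0 up, beside 1.40% down and 4.21% up of all regions. The other 15 genes had neither call, and 4 of the 9 down regions were at Ncr1. Within the gene or 10 kb of it, 5 had a down call and 1 an up call. At Ncr1, the gene of NKp46, which triggers NK cells, 4 of 11 regions were down, and Cd226, the activating receptor DNAM-1, had 2 of 20. Il18r1, Il2rb and Il2rg, chains of the receptors for IL-18 and for IL-15, had 1 down region each and are likewise named after their values were seen.

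Among transcription factors reported at the Ifng locus, 12 of 28 had neither call. Up calls were assigned to 13 and down calls to 10 of 28 genes, with 29 up (3.73%) and 20 down (2.57%) of 777 regions. Over all regions 4.21% were up and 1.40% down, so the up share of these genes was near the background. Within the gene or 10 kb of it, 5 of the 28 had an up call and 9 a down call, so that the order of the 2 counts turned. Tbx21 and Eomes, the T-box factors of NK cells, and Ctcf had neither, and are named outside the rule for their known part at Ifng. Up regions alone were assigned to Nfatc2 (4 of 27, all within the gene), Hlx (2 of 22), Runx1 (2 of 67) and Bhlhe40 (2 of 20). Those of Hlx lay 33.9 to 285 kb, of Runx1 118 to 257 kb and of Bhlhe40 39.1 to 51.4 kb from the gene. Down regions alone were assigned to Ikzf1 (4 of 35, all within the gene) and Zeb2 (3 of 58). Some genes were the nearest gene to calls of both kinds. Gata3 had 4 up and 2 down of 46 regions, Jun 4 up and 1 down of 44, Ets1 3 up and 2 down of 79 and Prdm1 3 up and 1 down of 44. Bach2 had 1 up and 3 down of 66, Tcf7 1 up and 2 down of 24, and Nfkb1 1 of each of 36. Their position varied: 1 of the 6 at Gata3 and 1 of the 5 at Ets1 lay within the gene and the farthest at 991 and 466 kb, while those of Jun lay 13.2 to 163 kb away. At Prdm1, 1 of 4 lay within the gene and the farthest at 87 kb. Within the gene lay 3 of 4 at Bach2, 2 of 3 at Tcf7 and 2 of 2 at Nfkb1.

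In the list of the IL-22 and IL-10 family and its receptors, 1 of 13 genes received an up call and 4 a down call. Of their 85 regions 1.18% were up and 5.88% down, beside 4.21% and 1.40% of all regions. Il23r, a receptor chain that drives IL-22 production, had 2 of 17 regions down, both within the gene. The up region was assigned to Il10, 3.07 kb from the gene, and that gene is named after its value was seen. Among 7 genes of mRNA control, 2 received an up call and 0 a down call. Their up share, 4 of 92 regions or 4.35%, was near the 4.21% over all regions, and within the gene or 10 kb of it 0 of the 7 had an up call. Zc3h12a, which encodes the ribonuclease Regnase-1, had 3 of 28 up, all at least 84 kb from the gene.

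**Figure D4:**
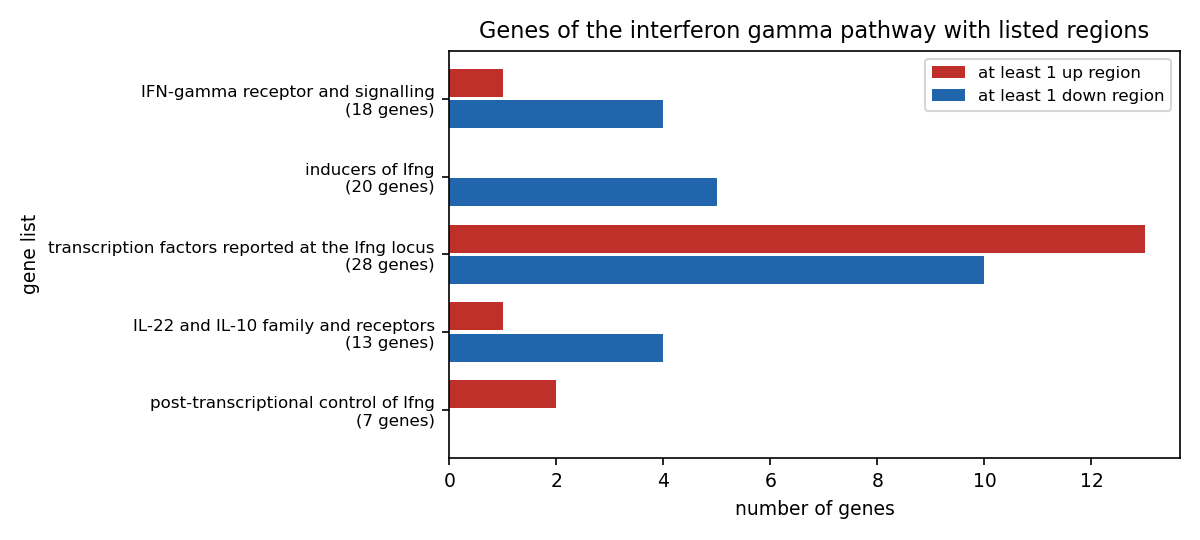
Number of genes (horizontal axis) in each of 5 gene lists (vertical axis, with the size of each list) that were the nearest gene to at least 1 up region (red) or at least 1 down region (blue). Down bars reach 4, 5, 10, 4 and 0 genes and up bars 1, 0, 13, 1 and 2 genes from top to bottom. No share over all genes is drawn.

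Single genes closest to the locus in their shares of up and down regions were sought among the 209 genes with at least 10 regions and both kinds of calls. Likeness was the sum of the absolute differences of the 2 shares, in percentage points, and covers no sample or cell type. The closest were Dym and Gramd3, each with 2 up and 1 down of 32 regions (sum 0.149), Plcl2 with 2 and 1 of 33 (0.433), Dock5 with 2 and 1 of 30 (0.476) and Susd1 with 2 and 1 of 34 (0.7). These genes were matched to the shares of the whole locus, 6.35% up and 3.17% down, which include the unlisted Mdm1 and Il22 regions. Ifng alone had 9.76% up and 4.88% down, and the 5 genes are not matched to it. Of 2503 genes with at least 10 regions, the 209 with both kinds of calls were 8.35%.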

How the data were processed

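ATAC-seq was measured in 4 samples, 2 per dose, grouped by the dose in their titles. The submitters' processing notes name BWA, ArchR, MACS2, HOMER 4.11.1 and the build mm10, without their roles. The authors deposited 3 tables of the series as a whole: 91266 regions with widths, and the lists named up and down. How the regions and lists were called and which threshold was used is not given in the sources used here. The planned count test per sample had no values to run on.

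Region starts were raised by 1 to match the lists, after which all 5120 listed regions were identical to a region and 0 were in both lists. Each region was given to the nearest of 21887 protein-coding genes (RefSeq, GRCm38.p6, the assembly of mm10) by distance to the gene span, ties going to the nearer end. Starts and strands came from the RefSeq promoter table (250 bases before and 50 after each start), where all 5 starts of the locus were found. Promoter windows count as in a region when they overlap it by at least 1 base.

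Regions were named by rule: each listed region, those at gene ends, the widest, those next to listed ones and those at the edges of the locus. A few regions were named outside this rule, for their distance from Ifng or after their values were seen. Genes of the lists were named with both kinds of calls or at least 2 of one kind, with the exceptions given in the text. The members and gene lists were chosen with earlier results of these data known. Python 3.11.15, pandas 2.3.3, numpy 2.4.6 and matplotlib 3.10.9 were used, and the assignment and motif search were tested on simulated data. No p-value was computed.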

Additional observations from a re-analysis of the deposited data

How the results depend on the processing

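No paired analysis was possible because the tables hold no values per sample. For the same reason, leaving out a replicate and stricter thresholds were not run, and motif searches in whole regions or in 300 bases around their centres need a genome sequence and were not run.

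Of 24 alternatives for 5 counts, 14 stayed within 1.5 times the reported count and 10 did not. The locus of 63 regions became 40 within 200 kb of Ifng, 29 within 100 kb, 21 with genes of every biotype and 16 between the outer ends of the 3 genes. The 4 up regions became 0 with genes of every biotype, since 3 went to Ifngas1 and 1 to Gm33337, and 0 between the outer ends, since all listed regions lie past Ifng. The 2 down regions became 1 with genes of every biotype, with Ifngas1 taking the other, 1 within 100 kb and 0 between the outer ends. The 17 genes of the fixed lists with an up region became 7 when only regions within the gene or 10 kb of it counted. Every listed region of Hlx, Runx1, Fosl2, Jun, Bhlhe40, Ahr, Zfp36l2 and Zc3h12a lay more than 10 kb from its gene. The other changes were not traced.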

Other observations

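With genes of every biotype allowed, the 41 regions nearest to Ifng divided into 21 nearest to Ifngas1, 15 to Ifng, 3 to the pseudogene Gm9049 and 2 to the non-coding gene Gm33337. Of the listed ones, 3 up and 1 down were then nearest to Ifngas1, 1 down to Ifng and 1 up to Gm33337.

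Region density was 14.2 per 100 kb from the end of Ifng to the last region assigned to it, and 12.7 per 100 kb from the end of the gap around Il22 to the start of Ifng. It was 9.72 per 100 kb over the whole locus, the gap included.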
